A study of Mus musculus with 12 samples.

Results

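RNA sequencing libraries of unlesioned spinal cord from Tet1 mutant mice were compared with those from control mice. The comparison uses every library whose labels give unlesioned tissue, 3 mutant and 3 control, and so 6 of the 12 libraries of the series. The other 6 come from tissue taken 4 days after a demyelinating lesion (4dpl), and their levels are given only where they are named. They also enter the edgeR fit to all 12 libraries, which gave the p-values, standard errors and intervals unless another fit is named. The question was whether the adult cord, before any repair is called for, already differs between the genotypes.

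Control mice were Olig1+/+;Tet1fl/fl, which the labels call wildtype, and mutants were Olig1cre/+;Tet1fl/fl, which the labels call Tet1 cKO. Both genotypes thus carry floxed Tet1 on both alleles, and only the mutants carry cre, on an allele of Olig1. The effects of cre, of the altered Olig1 allele and of the loss of TET1 cannot be told apart in this comparison. Cre acts from development onward in cells that have expressed Olig1, where it removes exon 4 of Tet1. All mice were at postnatal day 60 (P60), and animals of either sex were used. The unlesioned tissue was the contralateral side of cords that had been injected with lysolecithin on the other side, so it is not tissue from uninjected animals. It was dissociated with papain and spun through a Percoll gradient, which enriches oligodendroglial cells without sorting them. The labels name 3 libraries per group and do not say whether each came from a separate animal or which libraries share one, so the p-values measure the spread between these libraries. The study's methods describe the RNA of such tissue as taken from biological replicates. In such mixed preparations, fewer cells of a type and less RNA per cell cannot be told apart.

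TET1 is one of the TET enzymes, which oxidize the methyl group of methylated cytosine, mostly at CG dinucleotides, to hydroxymethylcytosine. The oxidized base can be lost again, and it also persists as a mark of its own in brain and cord. In the oligodendrocyte lineage, progenitors that express Pdgfra divide and pass through a premyelinating stage marked by Gpr17 before they make the proteins and lipids of myelin. The adult cord keeps a pool of such progenitors next to its myelinating cells.

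The total count was between 39383778 and 60497880 in the control libraries and between 34805086 and 45797435 in the mutant libraries. Of 54838 genes in the tables, 31109 passed the filter on low counts and were tested. Oligodendrocyte genes were well represented, the 23 genes of mature myelin summing to 17170 CPM (counts scaled to a library of 1000000) or more in every library, but the libraries also held blood cell RNA. Neutrophil genes took from 3.59% to 13.81% of the counts and erythroid genes from 2.13% to 11.37%. A library of each genotype stood apart from the other 5 in a principal component analysis. On the leading component, with 42.47% of the variance, control replicate 1 was at 87.79 and the other libraries were between -40.14 and 1.52. On the next, with 22.12%, mutant replicate 2 was at -67.1 and the others between 4.46 and 20.17. For some of the results that rest on either library, values without it are given as well.

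**Figure D1:**
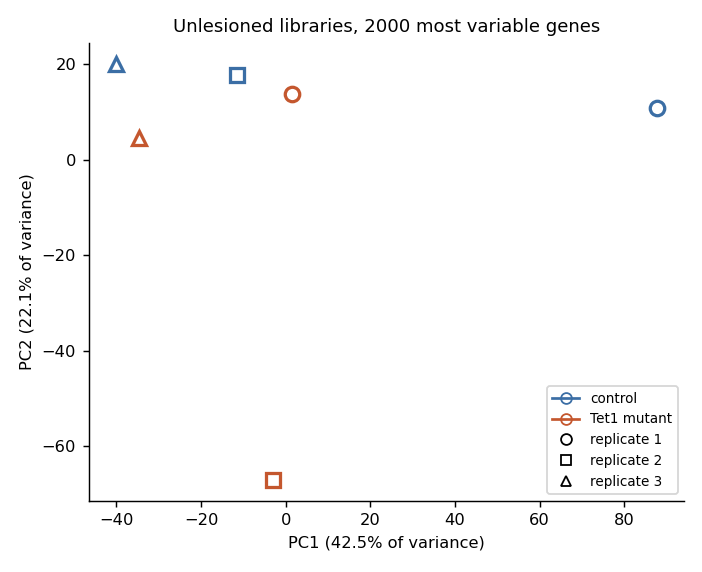
Principal components of the 6 unlesioned libraries over the 2000 most variable genes, with the leading component (42.5% of the variance) across and the next (22.1%) upward, in units of log2 CPM scores. Colors mark the genotype and symbols the replicate number. Control replicate 1 lies alone at the right and mutant replicate 2 alone at the bottom, and the other 4 libraries are not split by genotype along the horizontal axis.

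The targeted gene was examined first. Tet1, on the minus strand of chromosome 10 from 62804570 to 62908996 (GRCm38), was at 15.0, 14.9 and 18.3 CPM in control replicates 1 to 3. In mutant replicates 1 to 3 it was at 16.4, 9.94 and 12.1 CPM. Mutant replicates 2 and 3 were below every control library and mutant replicate 1 was within their range. The mean difference in log2 CPM was -0.353, which was not larger than the spread between libraries in an exact permutation test (two-sided, p = 0.3, where 3 against 3 libraries cannot go below 0.1). The deposited values are a single count per gene over all exons, of which the deleted exon is a part, and only the OLIG1-expressing cells lose it, so this level does not measure the deletion. The other TET enzymes were Tet2, with a log2 difference of 0.03 (standard error 0.25), and Tet3, with -0.28 (standard error 0.20). For Tet3 the control libraries were at 77.0, 70.2 and 66.2 CPM and the mutant libraries at 61.9, 51.7 and 61.6 CPM. All 3 mutant libraries were below all 3 controls, but the unadjusted p-value of edgeR's quasi-likelihood test was 0.171. None of 29 other genes of DNA methylation and its removal, among them the methyltransferases and the methyl-CG binding proteins, had an unadjusted p-value under 0.05 in this test, and their median log2 difference was -0.102. The smallest p-value among them was that of Mbd3, a subunit of the NuRD repressor complex, which was at 68.0, 70.2 and 61.2 CPM in the controls and at 60.1, 42.6 and 46.2 CPM in the mutants (log2 difference -0.42, unadjusted p = 0.0595 in the same test). Without control replicate 1 the median of the 29 genes was 0.108. Of these, 4 were then higher at an unadjusted p-value under 0.05, as were 6.41% of all genes tested.

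The locus that carries cre was examined in the same way. Olig1, a transcription factor of the oligodendrocyte lineage on chromosome 16, was at 338, 234 and 211 CPM in the control libraries and at 293, 88.7 and 197 CPM in the mutant libraries. Mutant replicate 2 was far below the rest and the other mutant libraries were near the controls. The mean difference in log2 CPM was -0.567 (exact permutation test, two-sided, p = 0.4), and it was -0.088 without mutant replicate 2. Olig2, the neighboring and related transcription factor, was at 20.7, 17.04 and 16.2 CPM in the controls and at 17.9, 20.9 and 17.6 CPM in the mutants. A ratio of the counts of both genes within a library does not depend on how many lineage cells it holds if both are made in the same cells. On the log2 scale it was 4.03, 3.78 and 3.70 in the controls and 4.03, 2.09 and 3.49 in the mutants, a mean difference of -0.636 (exact permutation test, two-sided, p = 0.5). Without mutant replicate 2 the difference in this ratio was -0.078. Mutant replicate 1 equaled the highest control and the other mutant libraries were below all of them. At 4dpl the ratio was 5.03, 4.41 and 4.38 in the controls and 3.94, 3.88 and 3.09 in the mutants, so that the groups did not overlap there (difference -0.969, exact permutation test, two-sided, p = 0.1, the smallest that 20 arrangements allow). Within 1000000 bases of the start of Olig1, 54 genes were tested, of which 2 were at an unadjusted p-value under 0.05, as were 1.72% (higher) and 3.5% (lower) of all genes tested. They were Atp5o, a subunit of the mitochondrial ATP synthase (log2 difference -0.67), and the predicted gene Gm36001 (-1.30), both lower in the mutant, and the median over the 54 genes was 0.028. Around Tet1 it was 1 of 43 genes, the predicted gene Gm5424 (-2.08), with a median of -0.075.

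Across all genes the genotypes differed little in comparison with the spread between libraries. A gene was called at a p-value under 0.01 and an adjusted p-value under 0.05, the thresholds of the study's methods. In edgeR's quasi-likelihood test, with p-values adjusted by the Benjamini-Hochberg method, 0 of 31109 genes (0.0%) were called and no adjusted p-value was below 0.693. With an unadjusted p-value under 0.05 as the only condition, 534 genes (1.72%) were higher in the mutant and 1090 (3.5%) were lower. These numbers come from the fit to all 12 libraries. With only the 6 unlesioned libraries fitted by edgeR, 615 genes were higher and 587 lower. The libraries of the genotypes were fully separated for 1271 genes (4.09%) that were higher in every mutant library than in every control library and for 1954 (6.28%) that were lower. The fit to all 12 libraries bounded the unlesioned difference of many genes closely. For 8298 genes the 95% interval of the difference lay within 1 log2 unit on either side of 0, and these included 8127 (58.19%) of the 13966 genes at a mean log2 CPM of 1 or more. The median standard error of the log2 difference was 0.307 among those 13966 genes and 0.538 over all genes tested. With only the 6 unlesioned libraries fitted, 6812 genes had such an interval by edgeR and 6100 by DESeq2. With the library total as the only scaling, the median difference of all genes went from 0.021 to 0.15 and the calls at an unadjusted p-value under 0.05 went to 1166 higher and 494 lower, so differences are best read against those medians. Without control replicate 1, the library that stood apart, 2174 of 33892 genes (6.41%) were higher and 1229 (3.63%) lower at that p-value, and 0 were called.

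DESeq2, the tool of the study's methods, called 32 genes in a fit to all 12 libraries, 13 higher and 19 lower in the mutant, and 13 when only the 6 unlesioned libraries were fitted, 7 higher and 6 lower. It called 4 genes in both fits. They were Gpr17, Dll1 and a pair of immunoglobulin variable segments, Ighv1-39 and Ighv14-4. For Ighv1-39 the counts were 7, 4 and 1 in the control libraries and 356, 128 and 20 in the mutant libraries. For Ighv14-4 they were 508, 96 and 522 in the controls and 8, 1 and 0 in the mutants. The segments thus differed in opposite directions. Such segments are expressed in B cells as parts of rearranged antibody genes, and they belong to a family whose similar members can share reads.

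Among genes at a mean log2 CPM of 1 or more with separated libraries, the 10 with the smallest p-values on the higher side are named here. They have adjusted p-values of 0.693 in edgeR's quasi-likelihood test, so none was called and each is given for its values. The difference of largest size was that of Gpr17, a G protein-coupled receptor of premyelinating oligodendrocytes, on chromosome 18 from 31942997 to 31949636 (GRCm38). It was at 17.4, 9.01 and 9.97 CPM in the control libraries and at 126, 29.0 and 32.1 CPM in the mutant libraries. Mutant replicate 1 was far above the other 2, which still exceeded every control. The log2 difference was 2.36 (standard error 0.55), a mutant level 5.14 times that of the control, and it was 1.32 without mutant replicate 1. Dll1, a ligand of the Notch receptors, on chromosome 17 from 15367354 to 15376872, was at 1.41, 0.765 and 1.08 CPM in the controls and at 5.55, 4.29 and 3.04 CPM in the mutants. The mutant level was 3.95 times that of the control (log2 difference 1.98, standard error 0.50), and with each library left out in turn the log2 difference stayed between 1.74 and 2.22. Diras2, a Ras-like small GTPase, on chromosome 13 from 52504380 to 52531279, had the smallest p-value of the 10 (unadjusted p = 0.000458). Its values were 0.751, 0.722 and 1.11 CPM in the controls and 2.43, 3.15 and 3.01 CPM in the mutants. Within each genotype the libraries lay close together, and the log2 difference was 1.73 (standard error 0.38).

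The rest of the same 10 genes were of mixed kinds. Gja1, which codes for connexin 43 of astrocyte gap junctions, was at 10.3, 8.24 and 12 CPM in the controls and at 24.1, 50.8 and 21.9 CPM in the mutants (log2 difference 1.66). Ust, a sulfotransferase of glycosaminoglycan chains, was at 4.70, 3.93 and 5.90 CPM in the controls and at 24.1, 10.4 and 8.58 CPM in the mutants (1.57). A single mutant library, replicate 2 for Gja1 and replicate 1 for Ust, was far above the other mutant libraries in both cases. Irs1, an adaptor of the insulin receptor, was at 0.920, 1.45 and 0.860 CPM in the controls and at 3.74, 3.86 and 3.13 CPM in the mutants (1.73). Igfbp5, which binds insulin-like growth factors, was at 5.90, 2.76 and 3.54 CPM in the controls and at 8.94, 10.3 and 9.04 CPM in the mutants (1.21). Both of these had mutant libraries that lay within a narrow range. The remaining 3 were Slc1a4, a neutral amino acid transporter (log2 difference 1.37), Hap1, a huntingtin-associated protein (1.44), and Fxyd6, a regulator of the sodium pump (1.44). With each library left out in turn, the unadjusted p-value of each of the 10 genes stayed at 0.00984 or below in the same test. The genes were chosen for small p-values and separated libraries in the same data, so this range is not an independent test of them.

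On the lower side, 2 of the 10 genes of smallest p-value owed much of their size to 1 library. Arg1, the arginase of macrophages, on chromosome 10 from 24915221 to 24927484, was at 407, 15.0 and 20.3 CPM in the control libraries and at 1.38, 1.93 and 3.83 CPM in the mutant libraries. Every mutant library was below every control, but control replicate 1 was far above the others. The log2 difference was -5.96 (standard error 1.16) with that library and -2.90 without it. Cxcl3, a chemokine that attracts neutrophils, was at 80.4, 3.40 and 2.40 CPM in the controls and at 0.682, 1.03 and 0.566 CPM in the mutants. It had the same shape, with a log2 difference of -5.23 that became -1.92 without control replicate 1. Border macrophage and monocyte genes were lower for 2 of 10 members at an unadjusted p-value under 0.05, with summed levels of 1011 to 2487 CPM in the controls and 704.5 to 1986 CPM in the mutants, and their part in the values of Arg1 was not tested.

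The other 8 genes on the lower side had mutant libraries at about 50% of the control level with little spread. Krtcap2, a subunit of the oligosaccharyltransferase that glycosylates proteins in the endoplasmic reticulum, on chromosome 3 from 89245966 to 89249906, was at 59.8, 68.7 and 70.3 CPM in the controls. In the mutants it was at 34.2, 34.8 and 34.7 CPM. The mutant libraries differed from each other by less than 1 CPM, and the mutant level was 0.522 times that of the control (log2 difference -0.94, standard error 0.19, unadjusted p = 0.000234 and adjusted p = 0.693 in edgeR's quasi-likelihood test). Sec61g, a subunit of the channel through which proteins enter the endoplasmic reticulum, was at 120.1, 122 and 92.3 CPM in the controls and at 60.4, 47.7 and 46.7 CPM in the mutants (-1.11). Mif, a cytokine that is also made by many resting cells, was at 129, 119.6 and 143 CPM in the controls and at 68.3, 55.1 and 67.0 CPM in the mutants (-1.04). Rpl38, a protein of the large ribosomal subunit, was at 64.5, 90.8 and 90.2 CPM in the controls and at 34.9, 44.1 and 41.7 CPM in the mutants (-1.03). For each of these the highest mutant library was well below the lowest control. The others were Tmem256 (-0.97), Chchd1, a protein of the mitochondrial ribosome (-0.96), Ndufa2, a subunit of respiratory complex I (-0.97), and Gpatch4 (-1.16). With each library left out in turn, the unadjusted p-values of these 8 genes stayed at 0.00516 or below in the same test. They too were chosen by their values in these libraries, so the range is not an independent test.

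**Figure D2:**
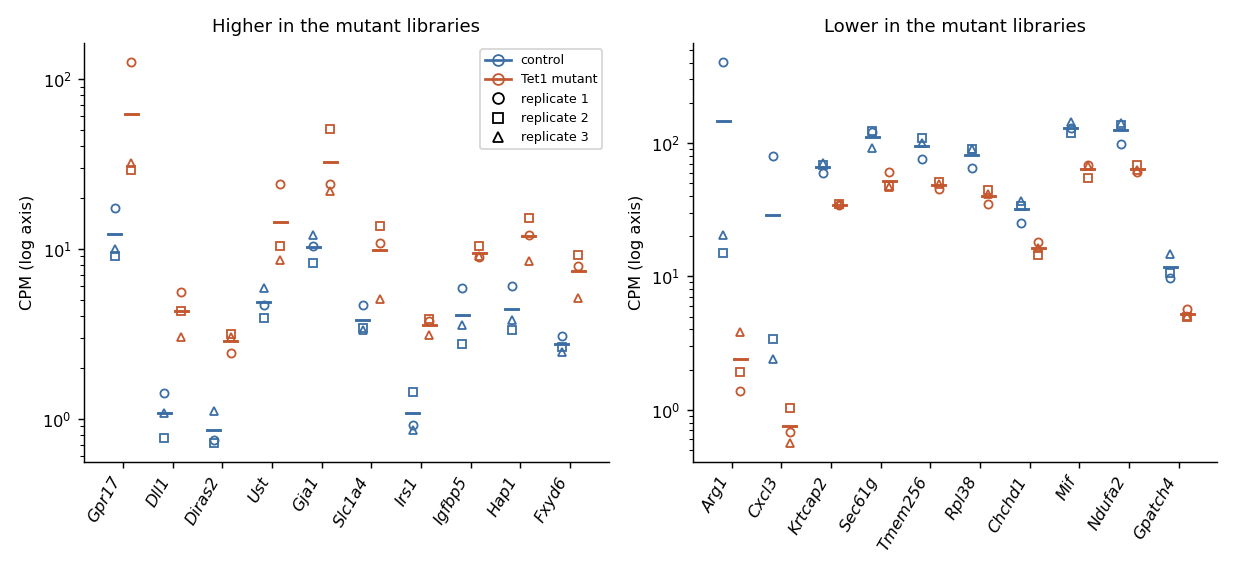
Level in CPM (log axis) of the 10 genes of smallest p-value on the higher side (left) and on the lower side (right) in each unlesioned library. Open symbols are libraries, with color for the genotype and shape for the replicate number, and bars are group means. Groups do not overlap, by the rule that chose the genes. Control replicate 1 carries the control mean of Arg1 (407 CPM against 15.0 and 20.3) and mutant replicate 1 the mutant mean of Gpr17 (126 CPM against 29.0 and 32.1), whereas the mutant libraries of Krtcap2 lie on top of each other.

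Of these lower genes, Rpl38 belongs to a large group, the proteins of the cytosolic ribosome, which translate messenger RNA. Ndufa2 belongs to another, the nuclear-encoded subunits of oxidative phosphorylation, which make ATP in mitochondria. Of 85 ribosomal protein genes, 83 were tested, and 65 of them (background 3.5%) were lower in the mutant at an unadjusted p-value under 0.05 and 0 higher. The median log2 difference was -0.621, against 0.021 over all genes tested. The libraries were separated on the lower side for 73 of the 83 (background 6.28%), and 82 had a difference below 0. Summed over the list, the level was 9718, 11240 and 11890 CPM in control replicates 1 to 3 and 6368, 7521 and 7486 CPM in mutant replicates 1 to 3. The highest mutant library was below the lowest control. Rpl12, a protein of the large subunit and a further example, was at 62.1, 80.2 and 96.0 CPM in the controls and at 42.9, 43.8 and 46.8 CPM in the mutants (log2 difference -0.84, standard error 0.22). No member was called by edgeR, and DESeq2 called Rpl38 in its fit to 12 libraries (adjusted p = 0.0411).

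The oxidative phosphorylation list gave a similar picture. Of 81 genes, 80 were tested, and 48 were lower (background 3.5%) and 0 higher at an unadjusted p-value under 0.05. The list had a median log2 difference of -0.504. Its summed level was 8350, 8518 and 8295 CPM in the control libraries and 5769, 6444 and 5889 CPM in the mutant libraries. The control libraries differed from each other by far less than the genotypes did. Uqcrq, a subunit of respiratory complex III, was at 109.5, 134 and 137 CPM in the controls and at 64.2, 71.8 and 70.1 CPM in the mutants (log2 difference -0.88, standard error 0.20). DESeq2 called Uqcrq and Ndufa2 in its fit to 12 libraries, and edgeR called no member. Over the fits that changed the scaling or the method or left out 1 library, the number of lower genes at that p-value was between 43 and 70 for the ribosomal list and between 27 and 58 for the oxidative phosphorylation list. With the library total as the only scaling the counts were 43 and 30, the lists' medians being -0.529 and -0.388 where the median of all genes was 0.15. All 37 genes of the mitochondrial genome had a count of 0 in every library, so the subunits of the respiratory chain encoded there are not measured here.

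Gene length moved with the difference between genotypes. Over the 13966 genes at a mean log2 CPM of 1 or more, the median log2 difference was -0.445 for the 173 genes with a summed exon length under 500 bases and -0.392 for the 383 genes of 500 to under 1000 bases. It was -0.261 for 1000 to under 2000 bases, -0.068 for 2000 to under 4000 bases and 0.03 for 4000 bases and over. The share of genes lower at an unadjusted p-value under 0.05 was 20.81% under 500 bases and 32.11% for 500 to under 1000 bases. It was 19.22% for 1000 to under 2000 bases, 6.86% for 2000 to under 4000 bases and 2.65% for 4000 bases and over. The share of higher genes stayed between 2.35% and 2.89% in every class. Without the members of both lists the medians of the same classes were -0.444, -0.374, -0.25, -0.065 and 0.031. The difference by length was therefore also present in genes outside the lists. The median exon length was 1726 bases for the ribosomal list, 1578 bases for the oxidative phosphorylation list and 9837.5 bases for the progenitor list, against 2705 bases over all genes tested. The genes tested include those of lower level, and 7703 of the 13966 genes in the length classes had 4000 bases or more. The medians of the ribosomal and oxidative phosphorylation lists fall in the class of 1000 to under 2000 bases, where 19.22% of genes were lower. At 4dpl the medians of the 5 classes were between -0.069 and 0.064. How much of the values of the lists goes with length was not tested.

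**Figure D3:**
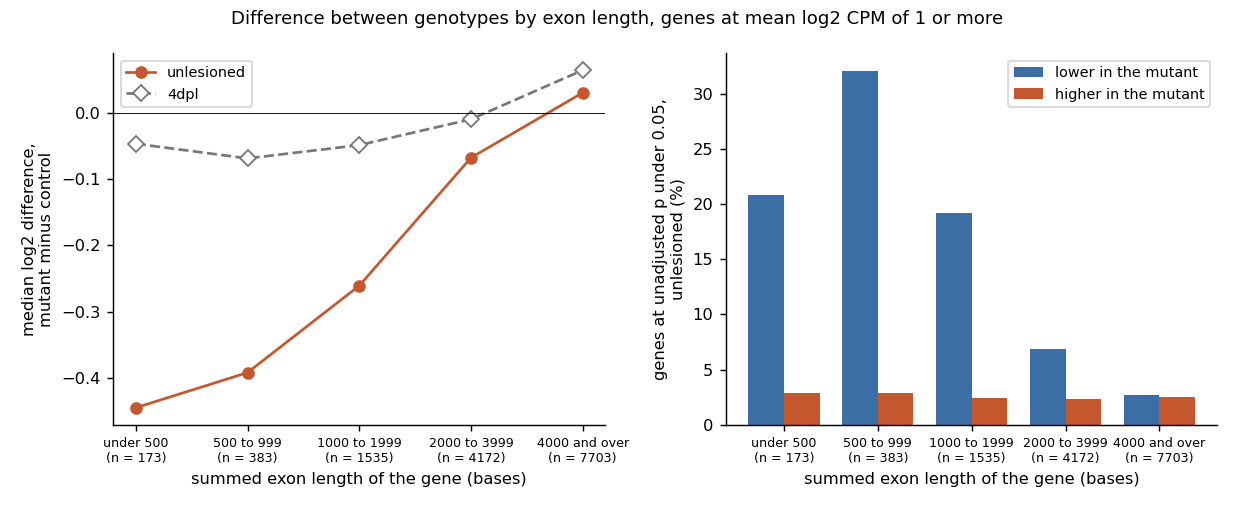
Difference between genotypes by summed exon length, for 13966 genes at a mean log2 CPM of 1 or more. Left, median log2 difference (mutant minus control) in unlesioned tissue (filled circles) and at 4dpl (open diamonds). Right, percent of genes of each class at an unadjusted p-value under 0.05 in unlesioned tissue, lower (blue) and higher (orange) in the mutant. The unlesioned medians climb from -0.445 to 0.03 with length and the blue bars go from 20.81% to 32.11% and then drop to 2.65%, while the orange bars stay between 2.35% and 2.89%.

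Erythroid RNA also moved with genotype. All 6 genes of the erythroid list were below 0, 4 of them at an unadjusted p-value under 0.05, with a median log2 difference of -1.328. Hba-a1, an alpha globin, was at 29800, 32390 and 11080 CPM in the controls and at 13440, 6179 and 8107 CPM in the mutants (log2 difference -1.40, unadjusted p = 0.0211 in edgeR's quasi-likelihood test). Mutant replicate 1 was above control replicate 3, so the groups overlapped. Hba-a2 (-1.44) and Hbb-bs, a beta globin (-1.37), had the same order of libraries. The near-identical alpha globin genes can share reads. The summed level of the list was 34250 to 100100 CPM in the controls and 18320 to 42850 CPM in the mutants. Without control replicate 2 or without mutant replicate 2, 0 of the 6 genes were at an unadjusted p-value under 0.05. The part of red cell RNA in the values of short genes was not tested.

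Oligodendrocyte genes were next taken by stage. All 12 progenitor genes passed the filter and all 12 had a log2 difference above 0, with a median of 0.546, and 4 (background 1.72%) were higher at an unadjusted p-value under 0.05. Pdgfra, the receptor for the growth factor that keeps progenitors dividing, was at 11.3, 9.67 and 8.38 CPM in the control libraries and at 31.1, 14.5 and 15.9 CPM in the mutant libraries. All mutant libraries exceeded all controls, replicate 1 by the most, and the mutant level was 2.09 times that of the control (log2 difference 1.07, standard error 0.33, adjusted p = 0.707 in edgeR's quasi-likelihood test). Gpr37l1, a receptor of progenitors and astrocytes, was at 21.5, 21.5 and 21.4 CPM in the controls and at 53.3, 36.8 and 33.8 CPM in the mutants (0.94). The controls were nearly equal and the mutants all above them. Lhfpl3, a membrane protein typical of progenitors, was at 5.32, 4.10 and 6.82 CPM in the controls and at 14.5, 9.75 and 11.4 CPM in the mutants (1.13). Tnr, the extracellular matrix protein tenascin R, was at 6.76, 6.01 and 7.56 CPM in the controls and at 19.9, 7.91 and 10.3 CPM in the mutants (0.91). The other 8 had unadjusted p-values from 0.124 to 0.920, among them Cspg4 (NG2, log2 difference 0.10) and Vcan (0.16), proteoglycans of the same cells. The sum of the list was 145.8 to 164.3 CPM in the controls and 193.5 to 265.6 CPM in the mutants, without overlap. Without mutant replicate 1 the median was 0.353, 0 of the 12 had an unadjusted p-value under 0.05 and Pdgfra had a log2 difference of 0.62 (unadjusted p = 0.0643 in the same test).

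Of 11 premyelinating genes, 10 were tested, and 3 (background 1.72%) were higher at an unadjusted p-value under 0.05. Beside Gpr17 these were Bmp4, a ligand that holds back differentiation, at 1.71, 0.999 and 2.03 CPM in the controls and 6.50, 2.44 and 2.42 CPM in the mutants (log2 difference 1.26), and Cnksr3, a signaling scaffold, at 4.58, 3.36 and 2.25 CPM in the controls and 7.98, 4.28 and 5.87 CPM in the mutants (0.83). Mutant replicate 1 was the highest library for all 3. The median of the list was 0.496, and it was 0.109 without mutant replicate 1, with 1 of 10 higher at that p-value. The remaining members, such as Bcas1 (0.49) and Enpp6 (0.51), which mark newly formed oligodendrocytes, had unadjusted p-values of 0.150 or more. Itpr2 had a difference of -0.04.

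Genes of mature myelin were examined in the same way. Of 23 myelin proteins and lipid enzymes, 0 had an unadjusted p-value under 0.05 by edgeR's quasi-likelihood test, 10 were above 0 and 13 below, and the median was -0.083. It was 0.172 without mutant replicate 2, with 1 gene higher at that p-value, and -0.586 without mutant replicate 1, with 2 lower. Summed over the list, the level was 27000, 23070 and 24150 CPM in the control libraries and 36860, 17170 and 25450 CPM in the mutant libraries. The mutant libraries thus spanned the whole range of the controls on both sides. The smallest p-value was that of Trf, the transferrin of oligodendrocytes, at 367, 451 and 414 CPM in the controls and at 366, 133 and 233 CPM in the mutants (log2 difference -0.75, unadjusted p = 0.0652). Tspan2, a tetraspanin of myelin, followed at 348, 172 and 228 CPM in the controls and 730, 155 and 404 CPM in the mutants (0.78). The intervals of only 3 of the 23 lay within 1 log2 unit.

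Of 20 transcription factors of the lineage, 1 was higher at that p-value and the median was 0.049. It was Id4, an inhibitor of differentiation, at 2.80, 3.91 and 5.02 CPM in the controls and 4.55, 34.6 and 6.39 CPM in the mutants (log2 difference 1.96). Mutant replicate 2 alone carried this value, which was 0.49 without it. Of 18 genes of axon and myelin contact, 1 was higher, Cntn1, a contactin of the axonal and glial surface, at 26.8, 20.6 and 21.5 CPM in the controls and 60.9, 25.2 and 35.2 CPM in the mutants (0.82). Without mutant replicate 1 the difference of Cntn1 was 0.39. The median of this list was -0.072. It was -0.312 without mutant replicate 1, with 0 higher and 1 lower, and 0.193 without mutant replicate 2, with 2 higher. Of 18 genes of cholesterol synthesis, which supplies myelin with its main lipid, 0 passed in either direction and the median was 0.098. Without control replicate 1, 6 of the 18 were higher and the median was 0.60, so a statement on this pathway depends on that library.

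**Figure D4:**
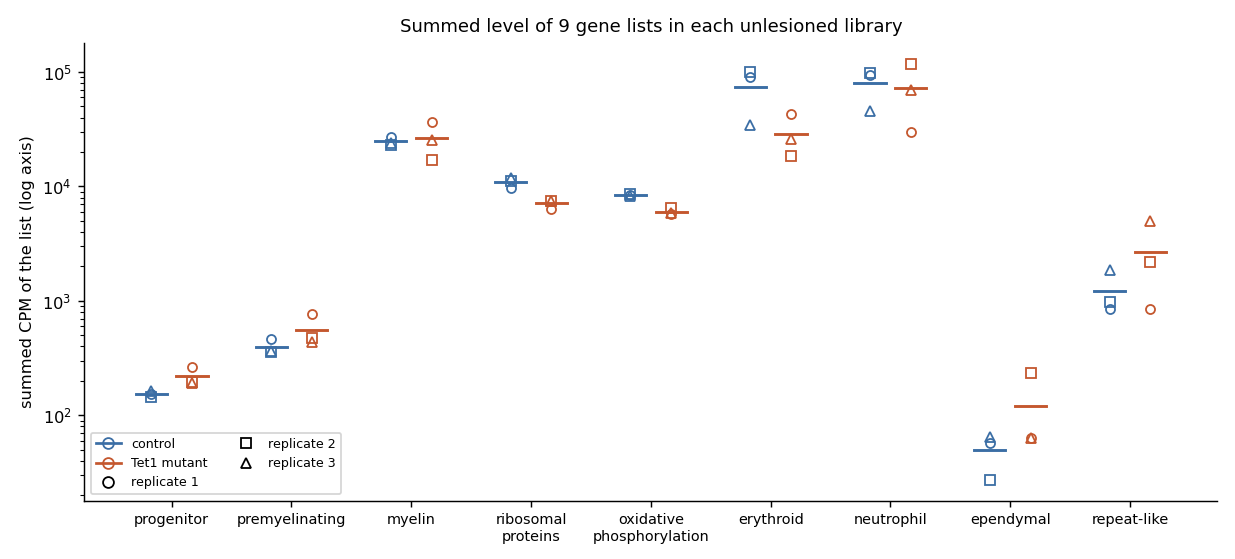
Summed CPM (log axis) of 9 gene lists in each unlesioned library, with color for the genotype, shape for the replicate number and bars for group means. The ribosomal protein and oxidative phosphorylation sums are lower in every mutant library than in every control library and the progenitor sum is higher. The myelin, erythroid, neutrophil, ependymal and repeat-like sums overlap between genotypes.

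Solute carriers were of interest because the study names transporters as TET1 targets. Of 394 such genes, 388 were tested, 8 were higher and 6 lower at an unadjusted p-value under 0.05, and the median log2 difference was 0.039. Of all genes tested, 1.72% were higher and 3.5% lower. Slc12a2, the sodium, potassium and chloride cotransporter, was at 113, 146 and 170 CPM in the control libraries and at 175, 85.4 and 118 CPM in the mutant libraries. The groups overlapped fully, and the log2 difference of -0.18 had a 95% interval from -1.02 to 0.66. Slc22a23, an orphan transporter, was at 25.6, 14.5 and 13.6 CPM in the controls and at 33.1, 22.4 and 18.3 CPM in the mutants (log2 difference 0.46, interval from -0.45 to 1.37). Beside Slc1a4, the smallest p-value was that of Slc15a3, a peptide and histidine transporter of lysosomes in immune cells, at 72.8, 49.0 and 47.8 CPM in the controls and 33.6, 30.7 and 30.0 CPM in the mutants (log2 difference -0.85, unadjusted p = 0.00321). All mutant libraries were below all controls. Of 15 cation-chloride cotransporters and their kinases, 0 had an unadjusted p-value under 0.05 by edgeR's quasi-likelihood test and the median was 0.018. The smallest p-value among them was that of Wnk1, a kinase that controls these cotransporters (log2 difference -0.43, unadjusted p = 0.0891). Without control replicate 1, 39 solute carriers were higher and 5 lower, where 6.41% of all genes were higher and 3.63% lower.

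Other cell types in the preparation were followed through their markers. Of 15 genes of homeostatic microglia, 2 were higher at an unadjusted p-value under 0.05, the purinergic receptors P2ry12 (log2 difference 1.01) and P2ry13 (0.90). P2ry12 was at 216, 103 and 252 CPM in the controls and at 648, 158 and 345 CPM in the mutants, with overlap between the groups. Of 17 genes of activated microglia, 2 were lower. They were Spp1, the secreted protein osteopontin, at 2396, 262 and 2325 CPM in the controls and 587, 93.2 and 493 CPM in the mutants (-2.09), and Ccl4, a chemokine, at 338, 345 and 508 CPM in the controls and 317, 133 and 231 CPM in the mutants (-0.81). The medians of these lists were 0.334 and -0.45. Without mutant replicate 1, 0 homeostatic genes were higher and 7 activated genes were lower, with medians of -0.143 and -0.745. The border macrophage genes with small p-values were Ms4a7 (-1.68) and Pf4 (-1.19), and the median of that list was -0.333. Without control replicate 1 the median was 0.331, and without control replicate 3 the differences were -0.46 for Ms4a7 and -0.66 for Pf4.

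Of 12 astrocyte genes, 2 were higher, Gja1 and Aqp4, the water channel of astrocyte end feet, at 5.73, 6.06 and 8.50 CPM in the controls and 16.1, 9.28 and 8.56 CPM in the mutants (log2 difference 0.74). The median was 0.247. Of 15 neuron genes, 1 was higher, Snap25, a protein of synaptic vesicle release (0.88), with a median of 0.207 over the list. All 6 ependymal genes were above 0, with a median of 1.165, and 2 were higher at that p-value, Rarres2 and Dynlrb2. Their sum was 57.79, 27.26 and 64.09 CPM in the controls and 63.81, 233.8 and 63.87 CPM in the mutants. Mutant replicate 2 stood out on the high side, and without it the median was 0.332 with 0 of 6 at that p-value. This is the same library that held the high levels of Id4 and Gja1. For the whole astrocyte list its sum was 368.6 CPM, against 227.5 to 255.0 CPM in the controls and 269.2 and 279.2 CPM in the other mutants, and the part of these cells in the values of Gja1 and Id4 was not tested.

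Of 8 meningeal fibroblast genes, 7 were tested, with a median of 0.812, and 1 was higher, Dcn, the proteoglycan decorin, at 7.85, 2.89 and 10.3 CPM in the controls and 21.1, 11.4 and 20.04 CPM in the mutants (log2 difference 1.32, unadjusted p = 0.00662). The median of this list was 0.364 without mutant replicate 3 and 0.398 without control replicate 2, with 1 higher each. It was 1.019 without control replicate 1 and 0.957 without mutant replicate 2, with 3 higher each. Lower genes at an unadjusted p-value under 0.05 were found among the B and plasma cell genes (2 of 12, Ighg3 and Ighm, median -0.312) and the T and NK cell genes (1 of 9, Nkg7, median -0.335). The median of the T and NK cell genes was 0.265 without control replicate 1 and 0 were then lower, Nkg7 having an unadjusted p-value of 0.0765 by edgeR's quasi-likelihood test. Ighg3 was at 0.301, 48.9 and 0.352 CPM in the controls, and its log2 difference of -7.04 became -1.36 without control replicate 2. Without that library 0 of the 12 B and plasma cell genes were lower. Their median was -0.002 without control replicate 1, with 2 lower, and -1.247 without mutant replicate 2, with 6 lower. The endothelial and mural list (15 genes, median 0.026), the neutrophil list (8 genes, -0.2), the Schwann cell list (7 of 8 tested, 0.252) and the muscle and cartilage list (8 of 10 tested, 0.106) had 0 members at that p-value by edgeR's quasi-likelihood test. So did the immediate early and dissociation response list (15 genes, -0.072) and the cell cycle list (15 genes, -0.295). The cell cycle list had a median of -0.603 with 2 lower without mutant replicate 2, and of -0.029 with 1 higher without control replicate 1. Of 12 interferon-stimulated genes, 1 was lower, Isg15, at 197, 66.5 and 33.1 CPM in the controls and 56.5, 40.6 and 40.1 CPM in the mutants. The sum of that list was 3636 CPM in control replicate 1 and from 813.4 to 1608 CPM in the other 5 libraries. Without control replicate 1, 7 of the 12 were higher, with a median of 0.977, so that library decided the direction.

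**Figure D5:**
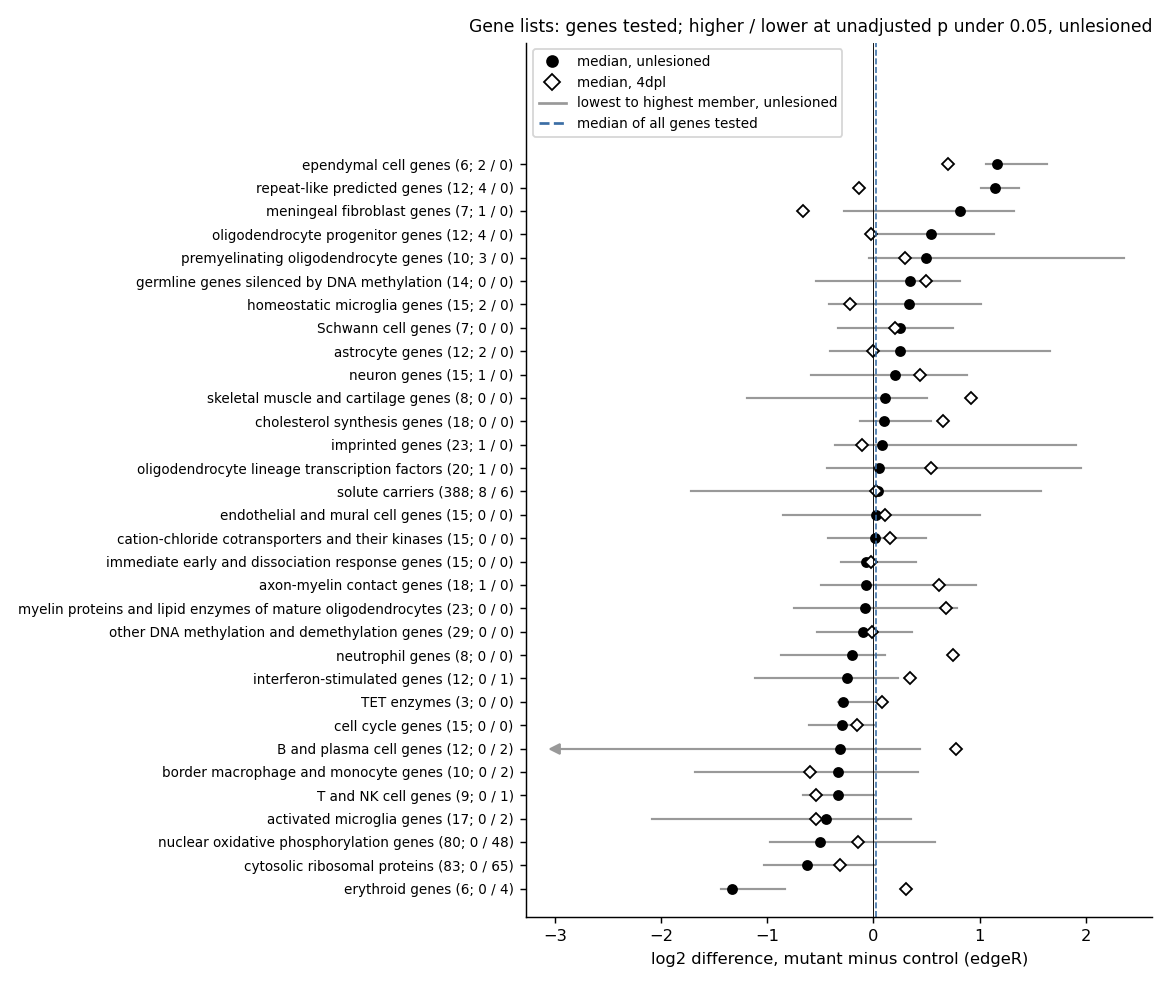
Median log2 difference (mutant minus control) of each of 32 gene lists in unlesioned tissue (filled circles) and at 4dpl (open diamonds). Gray lines run from the lowest to the highest member in unlesioned tissue, with an arrow where the line leaves the plot. Labels give the genes tested and the numbers higher and lower at an unadjusted p-value under 0.05 in unlesioned tissue. Ribosomal proteins (0 higher, 65 lower) and oxidative phosphorylation genes (0 and 48) have the most members at that p-value, and the erythroid, ependymal and repeat-like medians are the farthest from 0.

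Gene classes whose silencing is known to rest on DNA methylation were examined because TET1 acts on methylated DNA. Of 14 germline genes silenced by methylation in somatic cells, 0 had an unadjusted p-value under 0.05 by edgeR's quasi-likelihood test, with a median of 0.345. Their sum was 13.75 to 20.13 CPM in the controls and 16.15 to 22.41 CPM in the mutants. The ranges overlapped, at levels close to the filter on low counts. Of 24 imprinted genes, which are expressed from a single parental allele, 23 were tested and 1 was higher, Nnat, the small membrane protein neuronatin. It was at 77.1, 35.8 and 66.2 CPM in the controls and at 125, 424 and 122 CPM in the mutants (log2 difference 1.91). All mutant libraries exceeded all controls, and without mutant replicate 2 the difference was 1.05 (unadjusted p = 0.0722). Of 13 predicted genes that resemble repeats, 12 were tested, all were above 0 with a median of 1.15, and 4 were higher at that p-value. Gm10719 was at 3.01, 3.65 and 6.76 CPM in the controls and at 3.41, 9.49 and 20.8 CPM in the mutants. Its libraries overlapped, and without mutant replicate 3 the list had a median of 0.313 and 0 members at that p-value. These loci lie in near-identical copies, whose reads the study's counting may have split or dropped.

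The promoters of the genes that differed were then compared for the CG dinucleotides on which TET1 acts. The window was 250 bases before to 50 bases after the start of a gene, from RefSeq on GRCm38.p6, and 10545 genes at a mean log2 CPM of 1 or more had one, with a median of 20 CGs. Of the genes lower in the mutant at an unadjusted p-value under 0.05, 708 had a window, also with a median of 20. Of the higher genes 244 had one, with a median of 15. The median was 21 for 56 ribosomal protein genes, 19 for 61 oxidative phosphorylation genes, 9 for 9 progenitor genes, 5.5 for 16 myelin genes and 4 for 5 erythroid genes. Windows with 10 or more CGs made up 80.1% of all of these promoters, 86.4% of those of lower genes and 68.4% of those of higher genes. The deposited counts hold no methylation values, so these are descriptions of sequence only. As examples, the 120 bases upstream of a start are shown for a pair of lower genes, Rpl38 and Mif, and for a pair of higher genes, Dll1 and Diras2, read 5′ to 3′ on the strand of the gene with each CG in capitals. The regions are chr11:114668460-114668579 (plus strand) for Rpl38, chr10:75860278-75860397 (minus strand) for Mif, chr17:15376933-15377052 (minus strand) for Dll1 and chr13:52530837-52530956 (minus strand) for Diras2. The starts are those of RefSeq, and they differ from the ends of the genes in the GRCm38 annotation, so that the stretch of Diras2 lies within the gene as positioned above.
Rpl38: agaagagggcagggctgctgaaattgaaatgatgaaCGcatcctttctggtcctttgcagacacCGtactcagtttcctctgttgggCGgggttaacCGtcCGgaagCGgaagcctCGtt
Mif: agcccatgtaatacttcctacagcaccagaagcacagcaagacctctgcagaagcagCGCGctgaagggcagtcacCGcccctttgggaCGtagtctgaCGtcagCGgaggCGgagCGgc
Dll1: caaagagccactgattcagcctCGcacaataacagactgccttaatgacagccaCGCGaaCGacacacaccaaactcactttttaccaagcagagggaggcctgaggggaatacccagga
Diras2: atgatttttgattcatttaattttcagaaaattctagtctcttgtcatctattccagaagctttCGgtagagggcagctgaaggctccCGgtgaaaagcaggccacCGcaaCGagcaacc
The printed stretch held 7 CGs for Rpl38, 8 for Mif, 4 for Dll1 and 4 for Diras2, and the whole window of 300 bases held 11, 14, 15 and 8.

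The same genes were last set beside the genotype difference at 4dpl, which rests on 6 other libraries. There, 1602 genes (5.15%) were higher in the mutant and 551 (1.77%) lower at an unadjusted p-value under 0.05. A test of the difference itself, the interaction of genotype and lesion, called 0 genes in edgeR's quasi-likelihood test. Its lowest adjusted p-value was 0.9999, and 1184 genes were at an unadjusted p-value under 0.05. Pdgfra had a log2 difference of 1.07 in unlesioned tissue and of -0.51 at 4dpl. The corresponding values were 1.32 and -0.66 for Dcn, 2.36 and 0.28 for Gpr17, and 1.66 and -0.03 for Gja1. The interaction had unadjusted p-values of 0.00452, 0.00439, 0.0138 and 0.0082 for these 4 genes in the same test, and none passed the adjustment. Olig2 had 0.07 in unlesioned tissue and 2.04 at 4dpl, and Slc12a2 -0.18 and 0.98. The mutant libraries at 4dpl were spread widely for both, with a mean of 33.8 CPM (SD 34.1, n = 3) for Olig2 and of 240.1 CPM (SD 163.0) for Slc12a2. The progenitor list had medians of 0.546 and -0.026, the myelin list -0.083 and 0.681, the ribosomal list -0.621 and -0.315 (3 of 83 genes lower at an unadjusted p-value under 0.05 at 4dpl), the oxidative phosphorylation list -0.504 and -0.147 (1 of 80) and the erythroid list -1.328 and 0.307. Tet1 itself had log2 differences of -0.33 and 0.34.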

How the data were processed

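Counts per gene were deposited by the authors. Per the study's methods, reads were aligned to mm10 with BWA, with filters for ribosomal and mitochondrial sequence, and uniquely aligned reads on exons of Ensembl GRCm38 genes were counted with featureCounts, without normalization. The submitters' processing notes name STAR and DESeq2 1.2.5. Gene positions and exon lengths came from the GRCm38 annotation. The members and gene lists were chosen with earlier results of these data known.

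All 12 libraries were fitted with edgeR 4.0.16 (R 4.3.3, limma 3.58.1): TMM scaling, filterByExpr, 4 group means and the quasi-likelihood test, with Benjamini-Hochberg adjustment over all genes tested. Standard errors and 95% intervals come from the same fit. Fitted log2 differences of low genes depend on edgeR's prior count. CPM are counts scaled to 1000000 by the TMM-scaled library size. Exact permutation tests were two-sided over 20 arrangements. The genes named were 7 set by the study, the 10 smallest p-values per direction with separated libraries at a mean log2 CPM of 1 or more, the 2 smallest p-values and, for cell types, the highest level of each list, and the genes DESeq2 called in both fits; others named were chosen after their values were seen. The methods were tested on simulated counts.

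Alternatives were DESeq2 1.42.0, edgeR on 6 libraries, RLE or total counts, other filters, the newer quasi-likelihood option, voom with sample weights, the replicate number as a block, and each library left out. No pair of libraries held the same counts within sampling noise. The labels do not say that their numbers pair the samples.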

Additional observations from a re-analysis of the deposited data

How the results depend on the processing

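Of the 65 named genes that were compared, 62 kept their direction in every one of up to 16 alternatives. The other 3 turned only where a library was left out, with log2 differences of -0.02 to 0.18 for Olig2, -0.50 to 0.04 for Slc12a2 and -0.26 to 0.33 for Tet2. Many of the 65 were chosen for a difference in these libraries, so a kept direction is not an independent test. Further genes named with values, such as Itpr2, Cspg4, Vcan, Atp5o and Xist, were not compared. Of 512 medians of the 32 lists, 502 stayed within the spread between libraries, and 14 lists kept their sign throughout. DESeq2 called 13 genes higher and 19 lower with 12 libraries, and 7 and 6 with 6. Without a filter on low counts edgeR called 2 higher and 7 lower. The newer quasi-likelihood option called 1 lower. With each library left out, 0 to 1 were called higher, the 1 being Ighv10-3 without mutant replicate 2. At an adjusted p-value under 0.10, 0 genes were called. At an unadjusted p-value under 0.05, the number of higher genes was 1045 and 1136 with DESeq2 on 12 and 6 libraries, 989 without a filter, 1014 with the newer option, 2166 with voom and sample weights, which gave control replicate 1 a weight of 0.2604, and 1166 with total counts, a scaling chosen after seeing the data. With each library left out it was 392 to 2174, the highest without control replicate 1. The number of lower genes was 587 in the fit to 6 libraries, 1700 with voom and 494 with total counts. The causes were not tested.

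With the replicate number as a block, 0 genes were called, and 689 were higher and 1134 lower at an unadjusted p-value under 0.05. Same-numbered libraries correlated at 0.15, -0.028 and 0.221 in their deviations from the group means, across genes, and mutant replicate 2 correlated best with control replicate 1, so the libraries share only a number.

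The precision is set by the spread between 3 libraries per genotype more than by depth.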

Other observations

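Further gene groups were looked at only after the ribosomal and oxidative phosphorylation values had been seen, and their counts are descriptions. At an unadjusted p-value under 0.05 by edgeR's quasi-likelihood test, 37 of 77 mitochondrial ribosomal protein genes were lower in the mutant and 0 higher, with a median log2 difference of -0.425. The same counts were 14 of 39 for proteasome subunits, 11 of 22 for small nuclear ribonucleoproteins and LSm proteins, 8 of 28 for RNA polymerase subunits, 9 of 61 for translation initiation factors and 7 of 56 for histone genes, each with 0 higher, where 3.5% of all genes tested were lower and 1.72% higher. The median exon length was 555.5 bases for the histone genes and 2255 to 3702 bases for the first 5 groups. Among genes at a mean log2 CPM of 1 or more, 32.11% of those of 500 to under 1000 bases were lower. For 2000 to under 4000 bases the share was 6.86%. The counts of the groups were not corrected for length. Without control replicate 1 the numbers of lower genes were 37, 12, 11, 7, 9 and 7 in the same order, and 6 translation initiation factors, 2 RNA polymerase subunits and 1 histone gene were higher. At 4dpl the medians of the first 5 groups were between -0.187 and -0.131 and that of the histone genes was 0.131. Of 53 genes of the protocadherin clusters, whose stochastic choice is tied to promoter methylation, 4 were higher and 1 lower.

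Of 155 immunoglobulin variable segments, 7 were higher and 19 lower at that p-value, and 5 of the 32 genes called by DESeq2 in 12 libraries and 6 of the 13 called in 6 were immunoglobulin genes. Ighv10-3 had counts of 4, 1 and 0 in the controls and 737, 0 and 524 in the mutants.

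Xist, the RNA that coats the inactive X chromosome, had counts of 0, 4 and 1 in control replicates 1 to 3 and of 43, 28 and 40 in mutant replicates 1 to 3, and the Y-linked gene Ddx3y had counts between 1596 and 5645 in these libraries. Each mutant library thus held more Xist counts than each control library, at levels under 1 CPM. DESeq2 called Xist in the fit to 6 libraries (log2 difference 4.44, adjusted p = 0.0356) and not in that to 12. Xist was chosen after its values were seen.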
